A study of Mus musculus with 16 samples.

Results

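Livers of untreated mice that carried the S534A substitution of p65, an alanine in place of a serine, were compared with livers of untreated wild-type (WT) mice, with 4 arrays in each group. These 8 arrays were picked by their sample titles out of the 16 arrays of a study of the hepatic response to lipopolysaccharide (LPS), and the other 8 arrays came from LPS-treated mice of both genotypes. Each array measured total RNA of whole liver. Values are log2 signals, so that a difference of 1 is a 2-fold difference. Within the group, arrays are called by the replicate number in their titles, 1 to 4. The labels do not say that equal numbers tie a WT mouse to an S534A mouse.

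All 4 groups were labelled male, C57Bl/6 and liver, and all mice lived on a light-dark cycle with 12 hours of light and free access to chow. The WT group was described as untreated C57Bl6/J. The S534A group was homozygous for a knock-in in exon 10 of the p65 gene that changed the codon TCC to GCA. The allele was built in PTL1 embryonic stem cells, 2 targeted clones were injected into C57Bl6/J blastocysts, the Neo cassette was removed by mating with FLPe mice, and the line was backcrossed for 5 generations to C57Bl6/J. The mutation is therefore present in every cell of the animal and not only in hepatocytes. Which of the 2 clones the animals came from, their age, their litters, the hour of collection and the time since the last meal are all unstated in the labels. The untreated mice had no vehicle injection in the labels, and the LPS groups received 1 mg/kg. The design text wrote the LPS dose beside the untreated S534A group as well, whereas the titles call it untreated. The labels do not say that the 4 samples of a group were separate animals, so the p-values cover the spread from sample to sample within a group, and that spread may be technical.

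p65, the product of Rela, is the main transactivating subunit of NF-kB. In resting cells it is held in the cytoplasm by the IkB proteins, and after stimulation the IkB kinases free it. The same kinases phosphorylate p65 at this serine in its transactivation domain. In liver, NF-kB drives acute-phase and inflammatory genes in hepatocytes and Kupffer cells and protects hepatocytes from death induced by tumour necrosis factor. The untreated groups compare the genotypes without LPS. The substitution, the flanking DNA of the targeted cells, the clone, the litter and the time of collection cannot be told apart in them.

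The labels were checked on the levels of a few genes. Ifit2, an interferon-induced antiviral gene, lay between 6.23 and 6.82 in the 4 untreated WT arrays and between 6.42 and 6.78 in the 4 untreated S534A arrays, against 12.48 to 12.87 across the 8 LPS arrays. Cxcl10, an inflammatory chemokine, lay between 7.99 and 8.58 in the untreated arrays of both genotypes and between 13.61 and 13.86 after LPS. No untreated S534A array thus approached an LPS array in either gene, both of which were chosen for this check after their values had been seen. The mean of 11 hepatocyte markers (Alb, Apoa1, Ttr and others) was 13.41 to 13.56 in untreated WT and 13.48 to 13.55 in untreated S534A liver. The genotype could not be checked on a level, because a substitution of 1 amino acid need not change the amount of Rela mRNA.

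Rela itself was measured at 10.03, 10.27, 10.06 and 10.34 in WT arrays 1 to 4 and at 9.92, 10.00, 9.88 and 10.13 in S534A arrays 1 to 4. The groups overlapped. The difference was −0.19 ± 0.08 (SE, n = 4 and 4), which did not pass the test (limma, adjusted p = 0.486). After LPS the level was 11.31 to 11.47 in WT and 11.37 to 11.43 in S534A liver, a difference of 0.00 ± 0.08.

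Across 15908 named genes, 2 differed between the genotypes at an adjusted p under 0.05, which is 0.0126% of the genes tested (limma on all 16 arrays with 4 group means, Benjamini-Hochberg adjustment, two-sided). Igfbp1 rose in S534A liver and Mrps18a fell. With no adjustment, 621 genes were higher (3.9%) and 791 were lower (4.97%) at p under 0.05. The lower genes thus made up 56.0% of these 1412 genes. Their share was 76.1% (314 higher and 1000 lower) when each array was centred on its median, 70.2% (329 higher and 775 lower) without the 3 arrays with shifted clock genes described below, and 39.9% (1266 higher and 841 lower) without WT array 4. With array weights 1920 were higher and 1571 lower, so that the larger side depended on the setting. The 4 S534A arrays lay wholly above the 4 WT arrays in 329 genes (2.07%) and wholly below in 576 genes (3.62%). Both calls depended on the fit: Igfbp1 passed in 14 and Mrps18a in 10 of 25 alternative analyses, and neither passed when the model was fitted to the 8 untreated arrays alone (adjusted p = 0.255 for both).

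**Figure D1:**
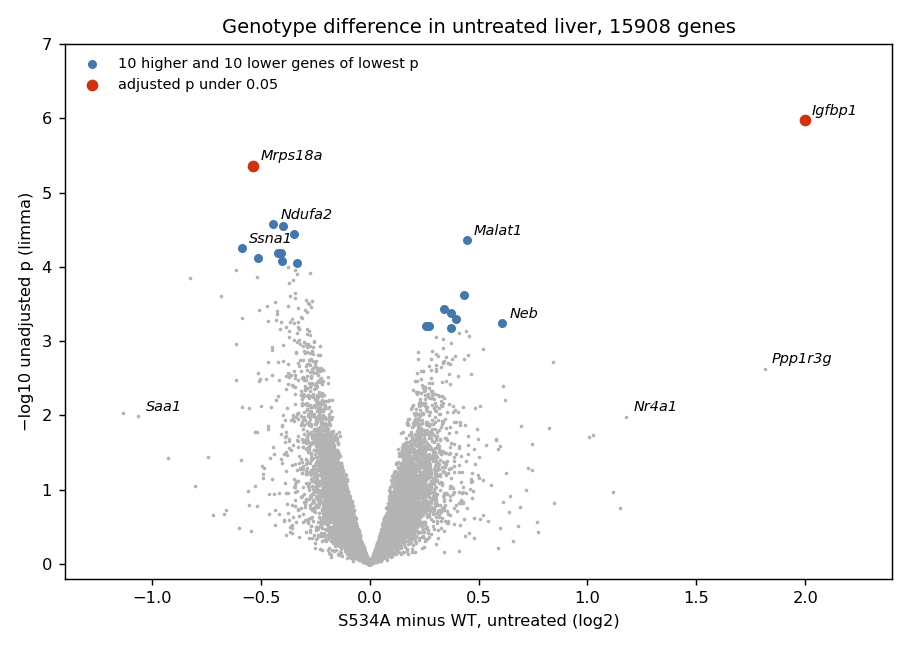
Genotype difference in untreated liver (x axis, S534A minus WT, log2) against −log10 of the unadjusted limma p (y axis) for 15908 genes. The 2 genes past an adjusted p of 0.05, Igfbp1 and Mrps18a, are red, and the 10 higher and 10 lower genes of lowest p are blue (these include the red pair, drawn on top). Igfbp1 lies furthest to the right, at 2.00, followed by Ppp1r3g at 1.81, and most genes lie close to 0.

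The size of the differences was small for nearly all genes. The median standard error of a difference was 0.099, and a typical 95% interval reached 0.21 to either side of the estimate. The interval lay within 1.5-fold in both directions for 15034 genes (94.5%) and within 2-fold for 15782 genes (99.2%). A difference of at least 2-fold was estimated for 9 genes, 7 higher and 2 lower in S534A liver. Beside Igfbp1 these were Ppp1r3g, Nr4a1, Mfsd2a, Rgs16, Egr1 and Erbb4 on the higher side and Saa2 and Saa1 on the lower side, of which only Igfbp1 passed the test.

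Igfbp1 encodes a secreted protein that binds insulin-like growth factors. Hepatocytes make more of it in fasting and less of it under insulin, and it is also known as a stress-induced liver gene. Its level was 9.53, 10.52, 9.60 and 9.06 in WT arrays 1 to 4. In S534A arrays 1 to 4 it was 11.31, 11.60, 12.02 and 11.78. The lowest S534A array stood above the highest WT array, and WT array 2 was the WT array closest to them. The difference was 2.00 ± 0.26 (95% interval 1.44 to 2.56), a 3.99-fold higher level (limma, adjusted p = 0.0168). Leaving out each of the 8 arrays in turn gave differences of 1.79 to 2.28 and adjusted p-values of 0.000289 to 0.113, and the call was lost without WT array 1 or without S534A array 2, 3 or 4. The adjusted p was 0.385 when the 3 arrays with shifted clock genes described below were left out.

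After LPS, Igfbp1 was high in both genotypes. It was 12.75, 11.90, 12.90 and 12.63 in WT and 13.31, 12.90, 12.72 and 12.73 in S534A liver, a difference of 0.37 ± 0.26 that did not pass (adjusted p = 0.9996). The untreated S534A arrays lay between the untreated WT arrays and most of the LPS arrays, with S534A array 3 at 12.02 above the lowest LPS array at 11.90. The genotype difference after LPS was smaller than the untreated one by 1.63 ± 0.37, an interaction with an unadjusted p of 0.000477 and an adjusted p of 0.875.

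The bases upstream of Igfbp1 are shown because this gene carries the main difference. The window ends at the base before the annotated start (RefSeq, GRCm38.p6), and the capitals mark CAAAACAA, the core of the insulin response element that FOXO factors bind.
Igfbp1 (chr11:7197537-7197786, plus strand): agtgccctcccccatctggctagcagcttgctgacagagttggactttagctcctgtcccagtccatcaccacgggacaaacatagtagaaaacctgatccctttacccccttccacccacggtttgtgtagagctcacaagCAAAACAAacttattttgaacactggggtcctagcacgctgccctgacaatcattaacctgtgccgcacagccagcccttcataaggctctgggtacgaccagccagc
The motif begins 108 bases upstream of the start. Searched on both strands, CAAAACAA occurs in 2.21% of 32851 windows of the same 250 bases before annotated starts. No binding was measured in this study, so the letters describe the promoter only.

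**Figure D2:**
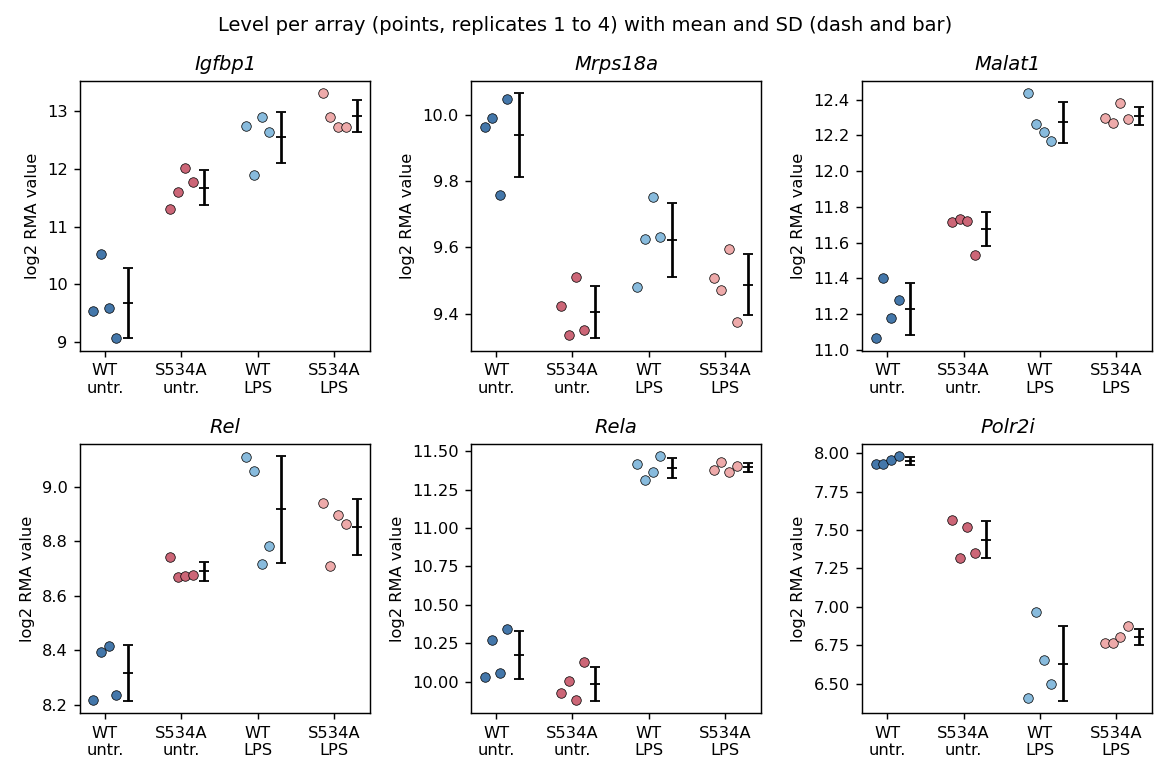
Level (y axis, log2 signal, a separate scale for each gene) of 6 genes in the 4 groups (x axis, untr. for untreated), with 1 point for each array in the order of the replicate numbers and the mean with its SD beside them. In untreated liver the S534A arrays lie wholly above the WT arrays for Igfbp1, Malat1 and Rel and wholly below for Mrps18a and Polr2i, whereas the Rela arrays overlap.

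Mrps18a encodes a protein of the small subunit of the mitochondrial ribosome. It was 9.96, 9.99, 9.76 and 10.05 in WT and 9.42, 9.34, 9.51 and 9.35 in S534A liver, with no overlap. The difference was −0.53 ± 0.08 (95% interval −0.70 to −0.37), a 1.45-fold lower level (limma, adjusted p = 0.0344). After LPS the 2 groups overlapped, with 9.48 to 9.75 in WT and 9.38 to 9.60 in S534A liver. When 1 array was left out at a time, Mrps18a passed only without WT array 3, and it did not pass once the trend with gene length described below was removed (−0.51 ± 0.08, adjusted p = 0.0634).

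The 8 higher genes of next lowest p after Igfbp1 and Malat1 were Kdm5a, Mfsd1, Psd3, Ermard, Neb, N4bp2l2, Ndufa3 and Rel, with differences between 0.26 and 0.61 and adjusted p-values of 0.158 to 0.175. None passed the test. Kdm5a, a histone H3 lysine 4 demethylase, was 7.97 to 8.40 in WT and 8.57 to 8.62 in S534A liver. Neb, which encodes the muscle protein nebulin, had the largest of these 8 differences, 0.61 ± 0.14, with 8.35 to 9.15 in WT and 9.33 to 9.50 in S534A liver. Rel encodes c-Rel, another NF-kB subunit. It was 8.22, 8.40, 8.42 and 8.24 in WT and 8.74, 8.67, 8.67 and 8.68 in S534A liver, a difference of 0.37 ± 0.09 (adjusted p = 0.175).

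The 9 lower genes of next lowest p after Mrps18a were Ndufa2, Abhd17a, Dpm3, Ssna1, Zfp467, Get3, Polr2i, Elof1 and Endog, with differences between −0.59 and −0.33 and adjusted p-values of 0.111 to 0.117. None of these passed either. Ndufa2, a subunit of respiratory complex I, was 10.48, 10.39, 10.41 and 10.26 in WT and 9.93, 9.91, 9.90 and 10.02 in S534A liver. Polr2i, a subunit of RNA polymerase II, was 7.93 to 7.98 in WT and 7.32 to 7.57 in S534A liver. Elof1 encodes a transcription elongation factor, Dpm3 a subunit of dolichol-phosphate mannose synthase, and Endog a mitochondrial nuclease. In all 9 genes the groups did not overlap, which the choice by lowest p makes likely.

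The LPS arrays are other samples than those that chose these 20 genes. After LPS, 13 of the 20 had a difference of the same sign as in untreated liver, 6 of the 10 higher and 7 of the 10 lower ones. Over all genes 50.7% had the same sign in both settings. No gene passed an adjusted p of 0.05 for the genotype difference after LPS (0% of genes called, 477 genes at an unadjusted p under 0.05, lowest adjusted p 0.9996 by limma). None passed for the interaction of genotype and LPS either (0% called, 766 genes at an unadjusted p under 0.05, lowest adjusted p 0.875).

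The gene lists below were read as counts of members at an unadjusted p under 0.05, to be set against 3.9% higher and 4.97% lower over all genes, and Igfbp1 was the only member of these pathway and marker lists to pass the adjusted test. Of the genes that build the NF-kB pathway (subunits, inhibitors and kinases), 21 of 23 were measured. Rel and Map3k7 were higher and Rela was lower, and the median difference was −0.02 beside −0.00 for all genes. Map3k7 encodes TAK1, the kinase that activates the IkB kinases, and was 9.16 to 9.36 in WT and 9.43 to 9.52 in S534A liver. Nfkbia, which encodes IkB alpha, was 9.27, 9.86, 9.23 and 9.90 in WT and 9.71, 9.97, 9.62 and 9.87 in S534A liver, so that the groups overlapped.

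NF-kB target genes showed no shared direction in untreated liver. Of 33 measured, 17 were above and 16 below 0, with a median of 0.01, and for 29 of them the 95% interval stayed within 1.5-fold. Rel was the only one higher at an unadjusted p under 0.05, and Irf1 and Icam1 were lower. Irf1, an interferon regulatory transcription factor, was 9.45, 9.01, 8.99 and 9.48 in WT and 8.49, 8.45, 9.08 and 8.90 in S534A liver. Its difference was −0.50 ± 0.15 (adjusted p = 0.261), and S534A array 3 lay above WT arrays 2 and 3. Icam1, an adhesion molecule, had a difference of −0.21 (adjusted p = 0.503).

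Upstream of NF-kB, 17 components of Toll-like receptor 4 signalling had a median of −0.02, with Irak3, a brake on this receptor, higher by 0.23 and Irf3 lower by 0.14. Among 32 cytokines and chemokines only Tgfb1 had an unadjusted p under 0.05, with a difference of −0.25 and a list median of 0.00. Among 22 genes of cell death and survival, Tnfrsf1a, the receptor for tumour necrosis factor (−0.30), and Bak1, a pro-apoptotic pore protein (−0.29), were lower and Mcl1, a survival factor, was higher (0.26). None of these 6 genes passed the adjusted test (adjusted p 0.312 to 0.558).

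Acute-phase proteins held the largest lower values of the whole table. Saa2, a serum amyloid A that hepatocytes secrete in inflammation, was 10.34, 8.21, 8.001 and 10.07 in WT and 8.29, 8.01, 7.82 and 7.98 in S534A liver. WT arrays 1 and 4 were high and WT arrays 2 and 3 lay among the S534A arrays, so the difference of −1.13 ± 0.38 did not pass (adjusted p = 0.367). Saa1 ran the same way, with 7.89 and 7.52 in WT arrays 1 and 4, 6.47 and 5.35 in WT arrays 2 and 3, and 5.46 to 6.10 in S534A liver. After LPS both genes were at 11.82 or higher in every array. Of 28 acute-phase genes, 4 were lower and 0 higher at an unadjusted p under 0.05, the others being Apcs and Orm2, with a list median of −0.03. Without S534A array 2 or S534A array 4, 2 were lower.

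Interferon-stimulated genes lay mostly below 0. Of 25 measured, 19 were below 0, the median was −0.10, and Bst2, Irgm1, Xaf1 and Irf9 had an unadjusted p under 0.05. Bst2, which tethers budding virus particles, was 11.11, 10.97, 10.67 and 10.72 in WT and 10.42, 10.41, 10.51 and 10.68 in S534A liver (−0.36 ± 0.10, adjusted p = 0.259). WT array 1 was the highest WT array in Bst2, and Irgm1 was 10.27 there against 9.85 to 9.98 in the other WT arrays. The list median was −0.06 without WT array 1 and −0.06 without S534A array 2, and 7 members were lower without WT array 3 or WT array 4. Antigen presentation genes were below 0 in 13 of 14 cases, with a median of −0.11, and the immunoproteasome subunits Psmb10 (−0.27) and Psmb8 (−0.22) had an unadjusted p under 0.05. With the trend with gene length removed, 10 of 14 were below 0 and the median was −0.07. Also 10 of 14 were below 0 without WT array 4 and without S534A array 2, each with a median of −0.05. The median was −0.18 without WT array 1 and −0.20 without the 3 clock-shifted arrays.

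Markers of liver macrophages also lay mostly below 0. Of 13 Kupffer cell markers, 11 were below 0, the median was −0.15, and the mean level of the list was 9.06 to 9.53 in WT and 8.82 to 9.27 in S534A liver, so that the arrays overlapped. C1qa, a complement subunit made by Kupffer cells, was 9.38, 9.29, 9.37 and 9.74 in WT and 9.23, 8.84, 9.20 and 9.19 in S534A liver (−0.33, adjusted p = 0.368). The median of the list was −0.03 without S534A array 2 and −0.09 without WT array 4. Lyz2, a lysozyme of monocytes and macrophages, had a difference of −0.45 ± 0.11 (adjusted p = 0.208), with 10.70 to 11.30 in WT and 10.33 to 10.71 in S534A liver. In whole liver, fewer cells of a type and less RNA in each cell cannot be told apart. The part of these markers in the differences of the interferon and antigen presentation genes was not tested. After LPS the Kupffer cell list had a median difference of −0.21.

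Of 5 monocyte markers, Lyz2 and Plac8 (−0.32) were lower at an unadjusted p under 0.05, and the list median was −0.13, or −0.05 without WT array 4. Alas2 (−0.23) was the only erythroid or platelet marker of 5 at that p, and Pck1 the only hepatocyte marker. No marker reached it among 13 neutrophil, 12 sinusoidal endothelial, 13 stellate cell and fibroblast, 7 T and NK cell, 6 B cell, 4 cholangiocyte, and 8 pancreas and fat markers. The median differences of these 7 lists lay between −0.07 and 0.02.

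Genes that respond to feeding or to fasting were above 0 in 17 of 27 cases and below 0 in 10. The list joins both kinds, so the sign of its median has no single reading. Of 27 measured, Igfbp1, Txnip, Angptl4, Irs2 and Pck1 were higher at an unadjusted p under 0.05 and 0 were lower, with a list median of 0.09. Txnip, an inhibitor of thioredoxin that follows glucose, was 10.33, 10.71, 10.25 and 10.94 in WT and 11.35, 11.18, 11.06 and 11.14 in S534A liver (0.62 ± 0.20, adjusted p = 0.334). Angptl4, an inhibitor of lipoprotein lipase induced in fasting, was 8.82, 9.71, 9.21 and 10.20 in WT and 9.85, 9.86, 10.22 and 10.14 in S534A liver. WT arrays 1 and 3 were the lowest in Angptl4, and also in Pck1, the rate-limiting enzyme of gluconeogenesis, at 12.41 and 12.50 against 12.98 to 13.27 in the other 6 arrays. WT arrays 1 and 3 are also 2 of the 3 arrays with shifted clock genes. The third, S534A array 3, went the other way, with the highest Angptl4 of the untreated arrays (10.22) and a Pck1 level among the 6 higher arrays. With those 3 arrays left out, 13 of the 27 genes were above 0, the median was −0.00, and Angptl4 had a difference of −0.0036, and that of Igfbp1 was 1.77 and did not pass (adjusted p = 0.385). At an unadjusted p under 0.05 there were then 1 higher and 2 lower members. The higher count was 2 without WT array 1 (list median 0.03), 2 without WT array 3 and 3 without S534A array 4 (list median 0.04).

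Ppp1r3g, a regulatory subunit that directs protein phosphatase to glycogen, had the largest difference after Igfbp1. It was 7.07, 9.98, 7.24 and 7.56 in WT and 9.81, 10.31, 8.95 and 10.05 in S534A liver. WT array 2 stood among the S534A arrays, and the difference of 1.81 did not pass (adjusted p = 0.248). Without WT array 2 it was 2.49 and passed (limma, adjusted p = 0.00793), the only 1 of the 8 fits without a single array in which it passed. Without the 3 arrays with shifted clock genes it was 1.28 and did not pass (adjusted p = 0.653).

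Immediate early genes, which respond to stimuli within minutes, gave a picture that depended on single arrays. Of 22 measured, Nr4a1, Egr1 and Dusp1 were higher at an unadjusted p under 0.05 and 0 were lower, with a median of 0.12. Nr4a1, an orphan nuclear receptor, was 6.62, 9.32, 7.01 and 6.94 in WT and 8.02, 8.94, 8.95 and 8.68 in S534A liver. WT array 2 was above every S534A array, and the difference was 1.18 ± 0.41 (limma, adjusted p = 0.384). It became 1.80 without WT array 2 (adjusted p = 0.000289), the only 1 of the 8 fits without a single array in which Nr4a1 passed. Without the 3 clock-shifted arrays it was 0.42 (adjusted p = 0.889). Egr1, a zinc finger transcription factor, was 7.75 to 8.47 in WT, 7.93 and 8.30 in S534A arrays 1 and 2, and 10.39 and 9.63 in S534A arrays 3 and 4. With the 3 clock-shifted arrays left out, the list had 0 higher and 3 lower genes and a median of −0.02. There were 7 higher without WT array 2, 6 without S534A array 1 and 1 without S534A array 4.

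Bile acid synthesis and transport genes were above 0 in 22 of 24 cases, with a median of 0.16, but only Abcb4, the phospholipid export pump of the canaliculus, had an unadjusted p under 0.05. Abcb4 was 11.02, 11.05, 10.91 and 11.43 in WT and 11.36 to 11.41 in S534A liver (0.28, adjusted p = 0.453). WT array 4 was above all S534A arrays, and without it 6 genes of the list were higher at that p. In that fit 1266 of all 15908 genes were higher at that p, against 621 with all arrays. In the list 4 were higher without WT array 2 and 4 without S534A array 3, beside 677 and 845 of all genes. With the 3 clock-shifted arrays left out, 20 of 24 were above 0, the median was 0.10 and 0 had an unadjusted p under 0.05. Among 39 genes of drug metabolism, Gstp1, a glutathione transferase, was lower and Sult1d1, a sulfotransferase, was higher by 0.40. Gstp1 was 14.04, 13.97, 13.87 and 14.01 in WT and 13.55, 13.65, 13.54 and 13.74 in S534A liver with no overlap, and its difference of −0.35 ± 0.07 had an adjusted p of 0.121.

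The other metabolic and growth lists had no more than 2 genes at an unadjusted p under 0.05 each. These were Mvd (−0.49) of 20 genes of cholesterol synthesis, Acads and Acadl of 27 of fatty acid oxidation, Pck1 of 19 of gluconeogenesis and amino acid catabolism, and Rbm3 and Hspa1a of 27 of the ER stress and heat shock response. Lipogenesis (21 genes), male-biased and growth hormone responsive genes (25) and the cell cycle (23) had none. These counts moved with the arrays used: without WT array 4, 6 genes of fatty acid oxidation were higher, and without the 3 clock-shifted arrays 9 of the ER stress and heat shock response were. Over all 15908 genes, 1266 and 329 were higher in these respective fits, against 621 with all arrays. Rbm3, a cold-induced RNA-binding protein, was 10.81 to 11.18 in WT and 11.23 to 11.56 in S534A liver (0.41 ± 0.10, adjusted p = 0.182). Among 26 complement and coagulation genes, F5, F11 and C1s1 were higher and C1qa was lower, with F5, coagulation factor V, at 11.69 to 11.92 in WT and 12.00 to 12.05 in S534A liver. Without WT array 3, or without S534A array 1 or 2, 1 was higher.

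**Figure D3:**
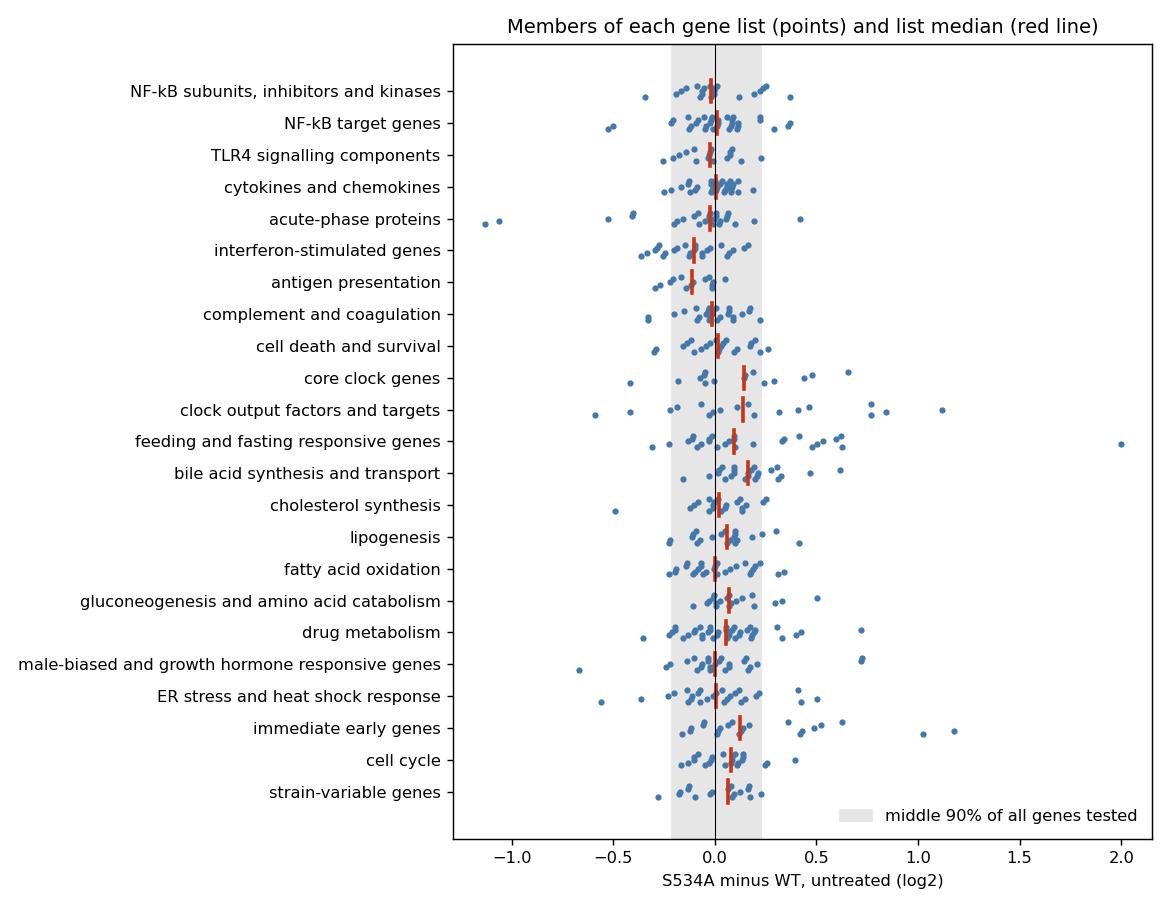
Genotype difference in untreated liver (x axis, S534A minus WT, log2) of every measured member (points) of 23 gene lists (y axis), with the list median in red and the middle 90% of all genes tested in grey. The points of most lists fall within the grey band, Igfbp1 lies at 2.00 in the feeding and fasting list, and the clock lists spread widely to both sides.

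Genes beside Rela were looked at because a knock-in made in embryonic stem cells may keep a stretch of the original chromosome after 5 backcrosses. Of the 25 measured genes nearest on each side, 40 of 50 were below 0, with a median of −0.06, and at an unadjusted p under 0.05 there were 5 lower and 1 higher. The median length of these genes was 6.41 kb, and with the trend with gene length described below removed, 35 of 50 were below 0, the median was −0.04 and 3 were lower. Without S534A array 2, 3 were lower as well. The 5 lower ones included AI837181 (−0.38 ± 0.10), Cfl1, an actin-severing factor (−0.26), and Rnaseh2c, a subunit of ribonuclease H2 (−0.27), with adjusted p-values of 0.248 to 0.261. The higher one was Malat1, an abundant nuclear long non-coding RNA, which lies 9 measured genes from Rela. Malat1 was 11.06, 11.40, 11.18 and 11.28 in WT and 11.72, 11.73, 11.72 and 11.53 in S534A liver, a difference of 0.44 ± 0.08 (adjusted p = 0.117) with no overlap. After LPS it was 12.17 to 12.44 in WT and 12.27 to 12.38 in S534A liver. Among 17 genes known to differ between mouse strains, Nnt (0.23), Ide (0.17) and Trim12c (−0.28) had an unadjusted p under 0.05 and none passed the adjusted test. Nnt encodes a mitochondrial transhydrogenase and carries a deletion in C57BL/6J mice. It was 9.14 to 9.42 in WT and 9.42 to 9.54 in S534A liver. Of 3 Y-linked genes measured, Uty was higher by 0.36 (adjusted p = 0.256).

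Short and long genes differed in direction. Genes were cut into 10 groups of equal number by length. Among the 4758 genes of the 3 shortest groups, up to 9.81 kb, 51 were higher (1.07%) and 451 were lower (9.48%) in S534A liver. Among the 4758 genes of the 3 longest groups, from 40.4 kb, 378 were higher (7.94%) and 67 were lower (1.41%). These counts are at an unadjusted p under 0.05, where the shares over all genes were 3.9% higher and 4.97% lower. Leaving out 1 array at a time gave 317 to 456 lower short genes and 173 to 736 higher long genes, the 736 without WT array 4. With the 3 clock-shifted arrays left out, 387 short genes were lower and 95 higher, while the long genes were 112 higher and 111 lower, and the median of the short genes was 0.01. The median differences were small, −0.03 for the short and 0.04 for the long genes. For each array the median of the short genes minus that of the long genes was taken, after subtraction of each gene's mean over the untreated arrays. It was 0.099, 0.019, 0.082 and −0.070 in WT and −0.079, −0.037, −0.017 and −0.030 in S534A liver. WT array 4 lay among the S534A arrays. After LPS the medians were 0.01 for the short and −0.01 for the long genes, the opposite direction to that in untreated liver. RNA quality values of these samples were not analysed here, and their part in this trend was not tested.

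**Figure D4:**
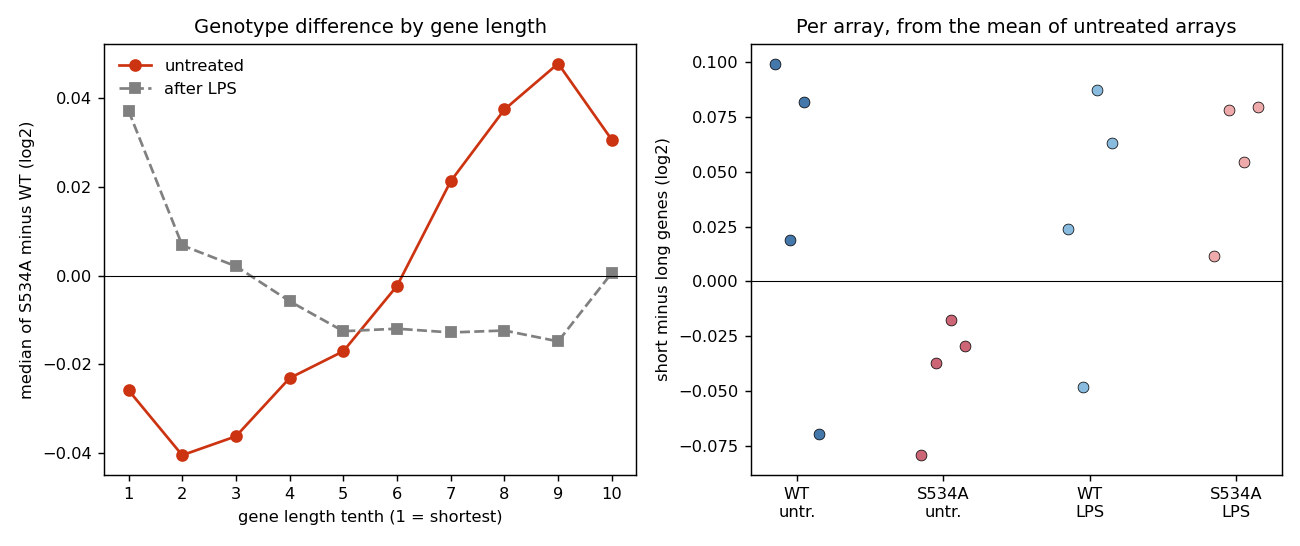
Left, the median genotype difference (y axis, S534A minus WT, log2) of genes in 10 groups of equal number by gene length (x axis, 1 is the shortest), in untreated liver (red) and after LPS (grey). Right, the median deviation of the 3 shortest groups minus that of the 3 longest (y axis, log2) for each array of the 4 groups (x axis). In untreated liver the medians run from −0.04 to 0.05, and WT arrays 1 and 3 are the highest of the untreated arrays on the right.

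Members of 3 families of short genes had lower values in many cases. They were chosen after their values had been seen, so their counts are a description. Of 77 mitochondrial ribosomal protein genes (Mrpl and Mrps), 27 were lower and 1 was higher at an unadjusted p under 0.05, with a median of −0.14, and Mrps18a is among the 27. Of 75 respiratory chain subunit genes (Nduf, Uqcr, Cox and Atp5), 22 were lower and 2 higher, with a median of −0.08. Of 57 cytosolic ribosomal protein genes (Rpl and Rps), 19 were lower and 1 was higher, with a median of −0.10. Their median gene lengths were 7.75, 7.08 and 3.14 kb, against 20.1 kb for all genes. After each array's trend with gene length was removed, 17, 14 and 8 members were lower and the medians were −0.10, −0.05 and −0.06. Without S534A array 2, 17 mitochondrial and 11 cytosolic ribosomal protein genes were lower, and without WT array 2, 8 cytosolic ones were. Probe sets of ribosomal protein genes can also pick up near-identical copies, which these values cannot separate.

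Clock genes varied far more among the untreated arrays than the typical gene. The molecular clock is a loop in which BMAL1 (Arntl) and CLOCK switch on Per and Cry genes through E-boxes, and the PER and CRY proteins then switch this off. Its output factors Dbp, Tef and Hlf act through D-boxes, and their levels in mouse liver rise and fall over the day. The median SD within a genotype was 0.63 over 15 core clock genes and 0.77 over 18 clock output genes, beside 0.14 over all genes. Of the 15 genes with the largest SD within the untreated groups, 8 belonged to these lists, among them Ciart, Dbp, Usp2, Arntl, Wee1 and Per1.

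Dbp was 8.45, 11.45, 7.85 and 11.80 in WT and 11.37, 11.50, 7.33 and 10.98 in S534A liver. WT arrays 1 and 3 and S534A array 3 were low, and the other 5 were high. Arntl ran the opposite way, with 9.27, 6.40, 9.17 and 6.35 in WT and 6.43, 6.43, 9.71 and 8.33 in S534A liver. S534A array 4 stood in between for Arntl, at 8.33, while its Dbp was close to that of the high arrays. Per1 was 6.54, 9.29, 6.48 and 8.81 in WT and 8.79, 9.13, 6.49 and 8.62 in S534A liver, with the same 3 arrays low. Nfil3, a repressor of D-box genes, was 9.19 to 10.11 in those 3 arrays and in S534A array 4, and 7.60 to 8.48 in the other 4.

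A clock score, the average of 5 genes that were low together (Tef, Dbp and the 3 Per genes) less the level of Arntl, put the arrays in an order. It was −1.70, 3.43, −1.77 and 3.47 in WT arrays 1 to 4 and 3.33, 3.41, −2.55 and 0.96 in S534A arrays 1 to 4. Each genotype thus held arrays of both kinds, with a mean of 0.86 ± 2.99 in WT and 1.28 ± 2.80 in S534A liver (SD, n = 4 each). WT liver had 2 arrays of low score and S534A liver had 1. Not all clock genes took part: Cry1 was 7.33 to 7.70 across all 8 arrays, and Nr1d1 was 11.65, 10.89, 10.65 and 11.75 in WT and 10.52, 10.74, 11.11 and 10.91 in S534A liver. None of the core clock genes had an unadjusted p under 0.05 for the genotype difference, and of the output genes only Leap2 did. With spreads this wide, 6 of the 15 core clock genes had a 95% interval within 1.5-fold. The score with the LPS arrays lay between −0.70 and 1.63, a narrower range than in the untreated arrays.

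**Figure D5:**
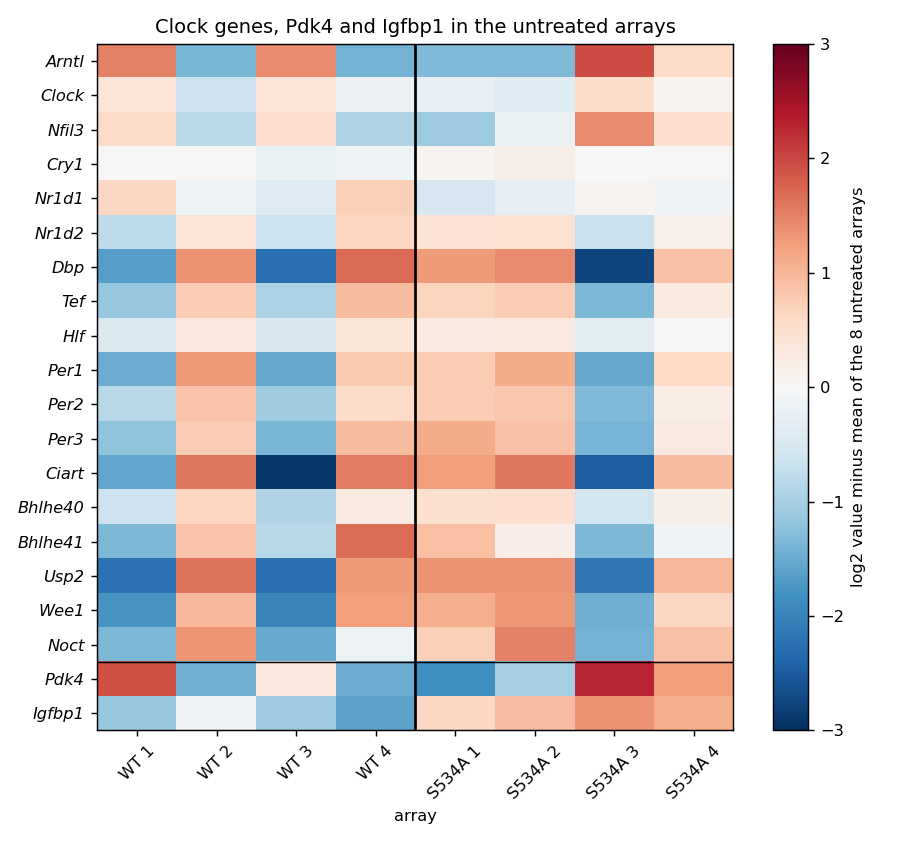
Level of 18 clock genes, Pdk4 and Igfbp1 (y axis) in the 8 untreated arrays (x axis), each as its log2 value minus the gene's mean over the 8 arrays (colour, red above and blue below). WT 1, WT 3 and S534A 3 share low Dbp, Per1 and Ciart and high Arntl, whereas Igfbp1 is above its mean in the 4 S534A arrays and below it in the 4 WT arrays.

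Upstream sequences are shown for 3 genes whose levels split the arrays in the same way and whose windows hold an E-box or a D-box. They were picked for holding the motif, so they do not stand for the other clock genes. Dbp and Arntl, which also split the arrays, are not among the genes found below with either motif. Each run ends before the outermost annotated start (RefSeq, GRCm38.p6), and capitals mark the E-box CACGTG in Ciart and Tef and the D-box TTATGTAA in Per3.
Ciart (chr3:95882258-95882478, minus strand): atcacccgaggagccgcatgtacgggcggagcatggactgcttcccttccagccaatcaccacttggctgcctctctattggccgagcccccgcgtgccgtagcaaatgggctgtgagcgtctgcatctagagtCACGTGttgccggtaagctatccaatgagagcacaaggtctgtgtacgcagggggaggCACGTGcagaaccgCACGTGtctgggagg
Tef (chr15:81802423-81802672, plus strand): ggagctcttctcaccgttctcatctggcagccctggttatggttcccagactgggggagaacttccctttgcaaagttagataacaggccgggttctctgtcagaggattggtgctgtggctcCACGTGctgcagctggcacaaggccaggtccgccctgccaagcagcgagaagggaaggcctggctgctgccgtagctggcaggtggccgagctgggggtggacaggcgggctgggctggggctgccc
Per3 (chr4:151044708-151044915, minus strand): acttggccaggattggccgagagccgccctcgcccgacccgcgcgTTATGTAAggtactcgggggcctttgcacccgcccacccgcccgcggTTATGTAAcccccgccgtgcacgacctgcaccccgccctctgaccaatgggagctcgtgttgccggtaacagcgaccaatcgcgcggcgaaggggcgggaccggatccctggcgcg
Ciart, a repressor of BMAL1 and CLOCK, holds 3 E-boxes, the nearest beginning 15 bases before the start. Tef holds 1 at 127 bases, and Per3 holds D-boxes at 163 and 116 bases. On both strands, CACGTG occurs in 6.02% and TTATGTAA in 0.819% of 32851 windows of 250 bases before annotated starts. Counted by gene, with any of its windows, an E-box was held by 6.86% and a D-box by 0.977% of 27025 genes. Of the 13 core clock genes with such windows, 4 held an E-box (Bhlhe41, Ciart, Cry1 and Per1) and 1 held a D-box (Per3). Of the 17 clock output genes with such windows, 2 held an E-box (Tef and Tspan4) and 0 a D-box. Ciart was 7.55, 10.69, 6.19 and 10.65 in WT and 10.36, 10.67, 6.62 and 10.06 in S534A liver. Tef was 8.30, 10.20, 8.49 and 10.38 in WT and 10.10, 10.21, 8.08 and 9.74 in S534A liver, and Per3 was 6.90, 8.87, 6.72 and 9.04 in WT and 9.22, 8.98, 6.71 and 8.36 in S534A liver. Cry1, which also holds an E-box, did not split the arrays.

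Some metabolic genes split the arrays in a like way. Pdk4, a kinase that shuts off pyruvate oxidation in fasting, was 10.16, 6.81, 8.57 and 6.76 in WT and 6.41, 7.24, 10.53 and 9.49 in S534A liver, high in the arrays with low Dbp and in S534A array 4. Mfsd2a, a lipid transporter induced in fasting, was 6.97, 11.16, 8.66 and 9.97 in WT and 11.07, 11.54, 7.90 and 10.85 in S534A liver. Rgs16, a regulator of G protein signalling counted among the clock output genes, was 6.85, 10.26, 7.35 and 9.73 in WT and 10.12, 10.30, 8.41 and 9.84 in S534A liver. Mfsd2a and Rgs16 had differences of 1.15 and 1.12 that did not pass (adjusted p = 0.780 and 0.674).

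The Igfbp1 difference was set beside the clock score. Among WT arrays, Igfbp1 was 9.53 and 9.60 in the pair of low score and 10.52 and 9.06 in the pair of high score. Among S534A arrays it was 12.02 in the array of low score and 11.31 to 11.78 in the other 3. With the clock score as a covariate over the 16 arrays, Igfbp1 and Mrps18a were again the 2 genes past the threshold. With the same covariate in only the 8 untreated arrays, neither passed (limma, adjusted p = 0.0809 for both). With the 3 low-score arrays left out, 1 gene passed, Capn11, a calpain protease. Its level was 5.99 and 6.13 in WT arrays 2 and 4, the only WT arrays in that fit. The S534A values were 5.37 to 5.47. WT arrays 1 and 3, which were left out, were 5.44 and 5.40, within the S534A range. All these values lay below the median of their array.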

How the data were processed

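The authors deposited 1 table of log2 values for 35556 probe sets of a whole-transcript array, normalized with RMA per the submitters' processing notes; neither the version nor the summary level of the probe sets is stated in the labels. Per the labels, 150 ng RNA was amplified and biotin-labelled. Of the probe sets, 21789 have 1 symbol in the platform annotation. Probe sets had to exceed the 30th percentile of signal on 4 or more of 16 arrays, and a gene was read from its probe set of highest mean (15908 genes). R 4.3.3 with limma 3.58.1 fitted 4 group means to all 16 arrays (12 residual degrees of freedom) with eBayes. p-values are two-sided and Benjamini-Hochberg adjusted over all genes. Precision is limited by the number of arrays.

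The members, the 24 gene lists and 11 marker lists were chosen with earlier results of these data known. Genes named are Rela, genes past the threshold, the 10 higher and 10 lower of lowest p, up to 3 (markers 2) of lowest p in each list, clock and NF-kB genes, the 15 of largest SD and neighbours of Rela; others named (Ifit2, Cxcl10, Ppp1r3g, Erbb4, Irs2, Orm2, Irf9, Capn11 and C1s1) were chosen after their values were seen. Of the 15908 genes tested, 99.7% had a RefSeq length (GRCm38.p6). Replicate numbers were not taken as a pairing, which the labels do not state. The deviations of equal numbers correlated at −0.49, 0.59, 0.59 and −0.20. For WT arrays 2 and 3 the best match was the S534A array of equal number, and for WT arrays 1 and 4 it was another, so these values do not settle it. The fit was tested on simulated data whose noise was independent between genes. Effects shared by many genes of an array were therefore not covered. Figures used matplotlib 3.10.9.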

Additional observations from a re-analysis of the deposited data

Results flagged for a closer look

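In 13 of 176 sets of 4 arrays (88 genes in each genotype), 1 array lay far from the other 3, with a gap whose share of the whole range exceeded Dixon's 95% critical value for 4 values. Chance flags about 1 in 20 such sets when they are independent and not chosen by their values. Many of these genes were chosen by low p or wide spread, and clock genes moved together, so that rate is no benchmark here.

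S534A array 3 was low in Dbp (7.33 against 10.98 to 11.50), Ciart (6.62 against 10.06 to 10.67) and Usp2 (7.33 against 10.46 to 10.82), and high in Psmb8 (8.06 against 7.92 to 7.94). WT array 2 was high in Nr4a1 (9.32 against 6.62 to 7.01) and in Ppp1r3g (9.98 against 7.07 to 7.56).

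Ctse, which encodes cathepsin E, was 10.37 in WT array 4 and 5.94 to 6.11 in the other WT arrays. In S534A liver it was 6.01, 6.17, 9.93 and 8.73, so that high and low arrays occurred in both genotypes. They occurred after LPS too, with 9.56, 9.98, 9.39 and 6.37 in WT and 6.70, 6.21, 9.31 and 6.10 in S534A liver. WT array 4 was also high in Tgfb1 (8.46 against 8.22 to 8.26).

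S534A array 4 was low in Malat1 (11.53 against 11.72 to 11.73) and high in Ndufa3 (11.40 against 11.30 to 11.31) and Tnfrsf1a (10.02 against 9.87 to 9.89). S534A array 1 was high in Rel (8.74 against 8.67 to 8.68), and S534A array 2 was low in C1qa (8.84 against 9.19 to 9.23).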

How the results depend on the processing

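The count of 2 genes was the same with averaged probe sets, with every singly named probe set, without the filter, with the filter raised to the median, the clock score as a covariate, and a threshold of 0.1, and it was 3 after a second quantile normalization. It was 4 with arrays centred on the median and with a trended, robust variance prior, and 370 with array weights, which gave S534A array 4 a weight of 3.47 and WT array 4 one of 0.256; the cause was not tested. It was 1 with the clock score in the 8 untreated arrays (Snord35b), 1 with the 3 clock-shifted arrays left out (Capn11), and 1 with the length trend removed (Igfbp1), an alternative chosen after seeing the data. It was 0 by limma with only the 8 untreated arrays (544 higher and 733 lower at an unadjusted p under 0.05), 0 there with the length trend removed, and 0 with every probe set of the table, where 26037 were tested. Leaving out 1 array at a time gave 0 to 4 genes.

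The labels do not say whether equal replicate numbers pair the samples. With the replicate block the count was 0 over 16 arrays (lowest adjusted p 0.0882) and 0 in the 8 untreated arrays (lowest adjusted p 0.661).

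Among 68 genes with 25 alternatives each, 1 difference changed sign: Angptl4, at −0.0036 with the 3 clock-shifted arrays left out, where fewer samples were fitted. The spread of the clock score changed by less than its own size under renormalization and with averaged probe sets, the only alternatives run for it. The count of 13 genes of like sign after LPS stayed within 1.5-fold under the alternatives run for it. Both limits are wide, so staying within them says little. With 4 arrays a group the unadjusted 95% interval of a typical gene reached 0.21 to either side, and larger differences, such as that of Dpm3 (−0.35, adjusted p = 0.117), missed the adjusted threshold.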
